A study of Homo sapiens with 12 samples.

Results

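Metallothioneins are small cysteine-rich proteins that bind zinc and copper and take up toxic metals such as cadmium. In humans the functional MT1 and MT2A genes lie in a cluster on chromosome 16, and their transcription is switched on by zinc through the metal-responsive factor MTF1, which binds metal response elements in their promoters. Glucocorticoids and oxidants are other known inducers. Metallothionein transcripts are commonly abundant in epithelial cells, and single MT1 genes are known to be silenced in some tumours.

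The family was taken as the 8 gene names MT1A, MT1E, MT1F, MT1G, MT1H, MT1M, MT1X and MT2A, which have 10 of the 47228 probes left on the Illumina HumanHT-12 v4 array once spike-in rows were removed. MT1E and MT1H have 2 probes each and the other genes have 1. Of the 10 probes, 9 passed the detection filter (detected at p under 0.05 on 2 or more of the 12 arrays), as did 24207 of the 47228, and all 8 genes kept a probe. MT1H probe 1580561 did not pass and was detected in none of the arrays.

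RNA came from MIA PaCa-2 and Capan-1, which are established human pancreatic ductal adenocarcinoma lines. Each carried a tet-on pLKO vector with a scrambled hairpin (shCtrl) or with 1 of 2 hairpins, sh1209 and sh1319, against focal adhesion kinase (FAK). The 12 arrays form 6 groups of cell line and hairpin with 2 arrays each, and the labels of Capan-1 spell the latter hairpin shFAK1319. All groups were kept in puromycin, at 1.5 ug/ml (Capan-1) or 3.5 ug/ml (MIA PaCa-2), and given 50 ng/ml doxycycline for 96 hours, so the controls carry the vector and both drugs too. The methods describe transduced, puromycin-selected stable lines and do not say that they are single clones. Whether both arrays of a group stem from separate cultures is stated in neither the labels nor the methods, so that p-values measure the spread between these arrays, which may be technical. The study asked what loss of FAK does to gene expression in these cells.

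The number of probes detected lay between 16259 and 19814 per array, and the number of arrays limits the precision. In MIA PaCa-2, PTK2 (which encodes FAK) fell at its brighter probe, 450253, to 21.1% of the shCtrl signal with sh1209 and to 17.9% with sh1319. In Capan-1 it fell to 65.4% and 29.2%. The dimmer PTK2 probe (2680750) passed the threshold for neither hairpin against shCtrl in either cell line, with log2 changes of 0.31 and -0.29 in the first cell line and -0.46 and -0.46 in the second. Of the epithelial markers, CDH1 and CEACAM6 were detected in none of the 6 MIA PaCa-2 arrays and in all 6 Capan-1 arrays, and KRT8, KRT18 and MUC1 were detected in all 12 arrays. Of the markers of other cells, CPA1 and INS (pancreatic acinar and beta cells) were not detected and PTPRC (leukocytes) was detected in at most 1 array of a cell line. PRSS1, an acinar trypsinogen, was detected in all 6 Capan-1 arrays and in no MIA PaCa-2 array, PECAM1 (endothelium) in 5 and 2 arrays, and CD68 and ALB in all 12.

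Promoter sequence was at hand for 3 of the 8 genes, MT2A, MT1H and MT1X, and these are shown because they follow different courses below. MT2A fell with both FAK hairpins in MIA PaCa-2, MT1X did not pass there, and MT1H was not detected in MIA PaCa-2 but was in Capan-1. The sequences are the 250 bases before the RefSeq transcription start, read 5′ to 3′ on the plus strand of build GRCh38.p14. They span chr16:56608334-56608583 for MT2A, chr16:56669564-56669813 for MT1H and chr16:56682220-56682469 for MT1X. Capitals mark the letters of the metal response element core, TGCACNC or TGCGCNC, found on either strand.
MT2A: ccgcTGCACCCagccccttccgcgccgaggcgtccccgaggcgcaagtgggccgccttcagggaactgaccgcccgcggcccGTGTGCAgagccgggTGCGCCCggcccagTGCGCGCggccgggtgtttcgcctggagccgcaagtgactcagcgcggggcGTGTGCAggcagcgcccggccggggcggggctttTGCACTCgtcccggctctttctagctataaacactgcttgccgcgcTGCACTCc
MT1H: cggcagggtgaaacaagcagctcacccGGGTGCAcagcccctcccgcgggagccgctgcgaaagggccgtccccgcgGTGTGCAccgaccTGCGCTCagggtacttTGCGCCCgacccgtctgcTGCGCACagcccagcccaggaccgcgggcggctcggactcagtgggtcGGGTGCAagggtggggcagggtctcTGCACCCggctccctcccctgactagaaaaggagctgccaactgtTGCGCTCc
MT1X: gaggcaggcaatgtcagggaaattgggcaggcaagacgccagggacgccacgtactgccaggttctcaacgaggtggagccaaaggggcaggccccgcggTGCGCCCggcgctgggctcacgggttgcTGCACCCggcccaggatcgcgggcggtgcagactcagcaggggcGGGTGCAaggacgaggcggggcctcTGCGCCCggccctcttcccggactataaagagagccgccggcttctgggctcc
The core matched 7 times in MT2A, 8 times in MT1H and 4 times in MT1X. Of the 35116 RefSeq promoters of the same length, 24.8% had at least 1 match, 0.37% had at least 4 and 0.0313% had at least 7. MT1H and MT1X shared matches that begin 53 bases (plus strand) and 78 bases (minus strand) before the start, and MT2A had one that begins 54 bases before it. In the same window MT1B had 3 matches, MT4 had 3, SLC30A1 had 1 and MTF1 had 0. These are letter matches and not measured binding sites, and the number of matches was not compared with any level.

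Each of the 9 tested probes differed more between the cell lines than with either FAK hairpin. With shCtrl, 6 of the 9 tested probes were lower in Capan-1 than in MIA PaCa-2 and 2 were higher (limma, adjusted p under 0.05), against 42.1% of all probes called in either direction. The median log2 difference of the 9 probes was -3.04, against -0.04 over all tested probes. MT1A, MT1E, MT1G, MT1X and MT2A lay lower by differences of -3.33 to -2.87 in Capan-1, MT1M was detected in MIA PaCa-2 alone, and MT1F and MT1H were detected in both Capan-1 shCtrl arrays and in neither MIA PaCa-2 shCtrl array. MT1M, MT1F and MT1H passed the detection filter only through the cell line where they were higher. They were called with no filter too. In bulk RNA, fewer cells with a transcript and less of it in each cell cannot be told apart.

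**Figure D1:**
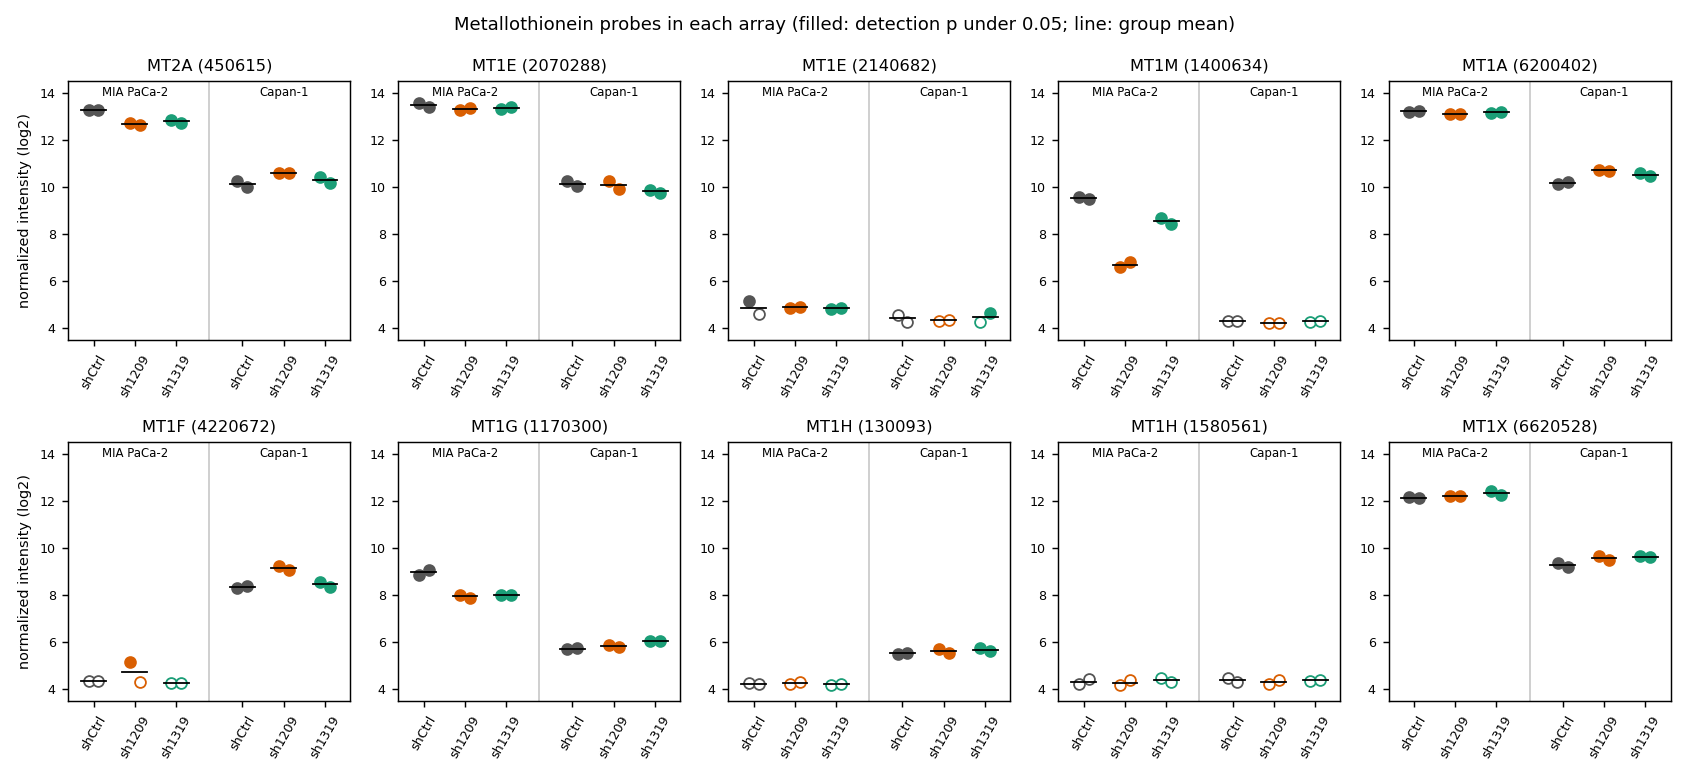
Normalized log2 intensity (y axis) of the 10 metallothionein probes in each of the 12 arrays, by cell line and hairpin (x axis). Points are arrays, filled where the detection p was under 0.05, and lines are group means. MT1M lies between 9.50 and 9.57 in MIA PaCa-2 with shCtrl and between 6.58 and 6.79 with sh1209, and is open (not detected) in all Capan-1 arrays, where MT1F lies between 8.30 and 9.24.

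MT2A is the only functional MT2 gene and is usually the most abundant human metallothionein transcript. Its normalized log2 intensity with shCtrl was 13.25 and 13.26 in the MIA PaCa-2 arrays, and 10.26 and 9.99 in the Capan-1 arrays. The Capan-1 arrays were lower without overlap, by -3.13 (SE 0.13, limma, adjusted p = 3e-09), which is 11.5% of the MIA PaCa-2 signal. MT1A was 13.20 and 13.23 in MIA PaCa-2 against 10.13 and 10.21 in Capan-1, a difference of -3.04 (SE 0.11, limma, adjusted p = 5e-10). MT1X was 12.17 and 12.14 against 9.35 and 9.22, a difference of -2.87 (SE 0.12, limma, adjusted p = 2.1e-09). The MT1A and MT1X levels of all 6 MIA PaCa-2 arrays, whatever the hairpin, lay above those of all 6 Capan-1 arrays.

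MT1E is represented by 2 probes that did not give the same picture. Probe 2070288 read 13.55 and 13.39 in MIA PaCa-2 with shCtrl and 10.23 and 10.05 in Capan-1, a difference of -3.33 (SE 0.14, limma, adjusted p = 2e-09). Its raw intensity reached 13660.4, below the highest value of 19275.4 in the table. Probe 2140682 lay near the detection limit, at 5.13 and 4.58 in MIA PaCa-2 and at 4.56 and 4.23 in Capan-1, and its difference of -0.46 did not pass (limma, adjusted p = 0.074). It was detected in 1 of the 2 MIA PaCa-2 shCtrl arrays, and without the other one (replicate 2) the difference was -0.75 and passed (limma, adjusted p = 0.0093). The deposited table gives no probe sequences, so whether a probe also binds a near-identical MT1 transcript was not tested for this or any other member.

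MT1G read 8.84 and 9.09 in MIA PaCa-2 with shCtrl and 5.70 and 5.75 in Capan-1. It was detected in all 12 arrays and was lower in Capan-1 by -3.24 (SE 0.12, limma, adjusted p = 8e-10). MT1M read 9.57 and 9.50 in MIA PaCa-2 and was not detected in any Capan-1 array, where its values lay between 4.20 and 4.31. The difference of -5.23 (limma, adjusted p = 1.9e-11) has Capan-1 at background. With Capan-1 set to the dimmest signal that still counted as detected on each of its arrays, MIA PaCa-2 was at least 30.5-fold higher on the background-corrected scale. This bound was not itself tested and does not hold for the intensities as deposited.

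MT1F and MT1H ran the other way. MT1F read 8.30 and 8.40 in Capan-1 with shCtrl and was not detected in MIA PaCa-2, at 4.37 and 4.35. The difference was 3.99 (limma, adjusted p = 2.6e-08), and MT1F was at least 12.5-fold higher in Capan-1 on the background-corrected scale. MT1H probe 130093 read 5.52 and 5.53 in Capan-1 against 4.25 and 4.20, not detected, in MIA PaCa-2. The difference was 1.29 (limma, adjusted p = 2.3e-06), with a lower bound of 1.76-fold on that scale. The other MT1H probe read 4.20 to 4.50 over all 12 arrays and was detected in none, so that the MT1H difference rests on 1 probe. These bounds were not themselves tested, and they hold after the background is subtracted and not for the intensities as deposited. Without background correction the log2 difference of MT1F was 2.15 in place of 3.99, that of MT1H was 0.49 in place of 1.29 and that of MT1M was -3.21 in place of -5.23, all still past the threshold.

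**Figure D2:**
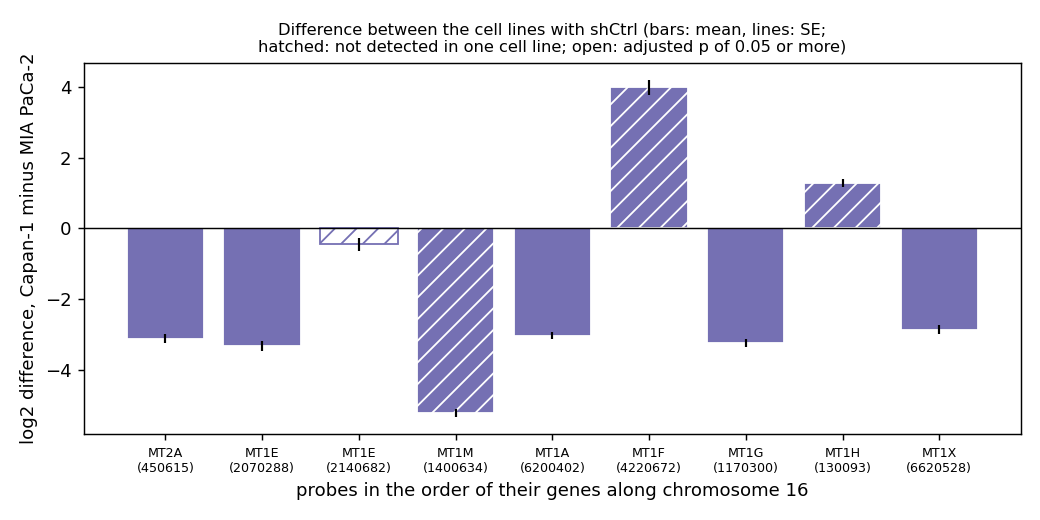
Log2 difference between the cell lines with shCtrl, Capan-1 minus MIA PaCa-2 (y axis), for the 9 tested metallothionein probes in the order of their genes along chromosome 16 (x axis). Bars are differences of group means, lines are SE, hatching marks probes detected in no shCtrl array of 1 of the cell lines, and the open bar did not pass the threshold. MT1F (3.99) and MT1H (1.29) are higher in Capan-1 and lie to either side of MT1G (-3.24).

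Along the chromosome the RefSeq annotation orders these genes MT2A, MT1E, MT1M, MT1A, MT1F, MT1G, MT1H and MT1X. The genes higher in Capan-1, MT1F and MT1H, therefore did not lie next to each other but on both sides of MT1G, which was lower there. Of 7 genes near the cluster (NUDT21, OGFOD1, BBS2, NUP93, SLC12A3, HERPUD1 and CETP), 6 had a tested probe. Of their 11 tested probes, 2 were higher and 5 lower in Capan-1, against 42.1% of all probes called, with a median of -0.47.

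The remaining metallothionein names of the table have 10 probes under 9 names, and only MTE and MTL5 passed the filter. MTE, an older name of the pseudogene MT1IP in RefSeq, read 11.03 and 11.10 in MIA PaCa-2 with shCtrl and 6.89 and 7.01 in Capan-1, a difference of -4.11 (SE 0.13, limma, adjusted p = 1.7e-10). A separate probe under the name MT1IP read 4.20 to 4.71 over all arrays. MT3, known from the brain, MT4, known from stratified epithelia, and MT1B did not pass the filter, nor did the pseudogenes MT1JP, MT1L and MT1P2. MTL5, now TESMIN, is a testis gene that shares a name and not the gene cluster, and its difference was -0.58 (limma, adjusted p = 0.004).

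With sh1209 in MIA PaCa-2, 3 of the 9 member probes fell and none rose, against 18.0% of all probes called. With sh1319 the same 3 genes fell, MT1G, MT1M and MT2A, and none rose, against 24.3% called. The comparisons share the shCtrl arrays, so their agreement is not independent. The median log2 change of the 9 probes was -0.12 with sh1209 and -0.09 with sh1319, against 0.01 and -0.01 over all tested probes, since the other 6 member probes passed with neither hairpin. With so few probes, counts this near the background do not set the family apart, and what follows are the values of the single genes.

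MT1M, an MT1 gene known from liver, changed most. It read 9.57 and 9.50 with shCtrl, 6.58 and 6.79 with sh1209 and 8.65 and 8.42 with sh1319. The 3 groups did not overlap, and the order was shCtrl, sh1319, sh1209. The log2 change was -2.85 with sh1209 (SE 0.12, limma, adjusted p = 3.9e-08), which leaves 13.9% of the shCtrl signal, and -0.996 with sh1319 (SE 0.12, limma, adjusted p = 0.00011), which leaves 50.1%. The hairpins differed from each other by -1.85 (limma, adjusted p = 1.1e-06), the only 1 of the 9 probes that passed between the hairpins in MIA PaCa-2, where 22.6% of all probes did. PTK2 probe 450253 was at 7.21 with sh1209 and 6.97 with sh1319, and its difference between the hairpins of 0.24 did not pass (limma, adjusted p = 0.17). At the dimmer PTK2 probe, 2680750, the hairpins differed by 0.59 (limma, adjusted p = 0.021), with sh1209 higher.

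MT1G read 8.84 and 9.09 with shCtrl, 8.02 and 7.88 with sh1209 and 8.02 and 7.99 with sh1319. It fell by 1.01 on the log2 scale (SE 0.12, limma, adjusted p = 0.00014) for sh1209 and fell by 0.96 (SE 0.12, limma, adjusted p = 0.00012) for sh1319, to 49.5% and 51.5% of the shCtrl signal. Both hairpin groups lay below both shCtrl arrays, and the difference between the hairpins was -0.05 with a 95% interval of -0.32 to 0.21. The calls for MT1G and MT1M with either hairpin passed in every alternative limma fit run, with each array left out in turn too.

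MT2A read 13.25 and 13.26 with shCtrl, 12.69 and 12.63 with sh1209 and 12.86 and 12.73 with sh1319. The groups with FAK hairpins lay below shCtrl without overlap, by -0.59 (SE 0.13, limma, adjusted p = 0.01) for sh1209 and -0.45 (SE 0.13, limma, adjusted p = 0.028) for sh1319. The sh1319 call is close to the limit. It did not pass without shCtrl replicate 1 (-0.47), shCtrl replicate 2 (-0.45), sh1319 replicate 1 (-0.52) or sh1319 replicate 2 (-0.39), nor with median scaling (-0.36), and the sh1209 call did not pass without sh1209 replicate 2 (-0.56, limma, adjusted p = 0.057).

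The other bright members did not pass in MIA PaCa-2. MT1A read 13.20 and 13.23 with shCtrl, 13.08 and 13.11 with sh1209 and 13.14 and 13.18 with sh1319, with changes of -0.12 and -0.05. MT1E probe 2070288 ranged from 13.28 to 13.55 over the 6 arrays, with changes of -0.15 and -0.11. MT1X ranged from 12.14 to 12.41, with changes of 0.08 and 0.19. The 95% intervals for sh1209 were -0.35 to 0.11 for MT1A, -0.45 to 0.14 for MT1E and -0.18 to 0.34 for MT1X, so that a fall as large as that of MT1G lies outside each. MT1F was detected in 1 array only, sh1209 replicate 1, at 5.15 against 4.29 in sh1209 replicate 2, and its change with sh1209 of 0.36 became 0.80 and passed when replicate 2 was left out (limma, adjusted p = 0.0068). MT1H was detected in no MIA PaCa-2 array.

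**Figure D3:**
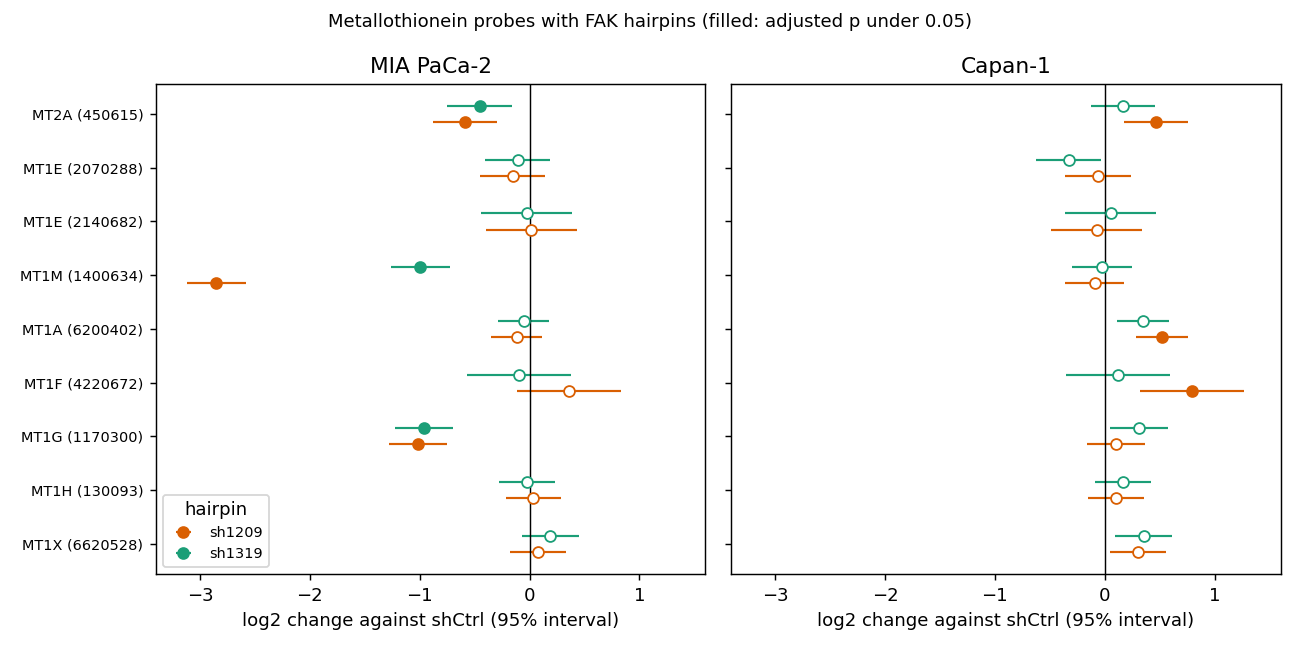
Log2 change against shCtrl (x axis) of the 9 tested metallothionein probes (y axis, in the order of their genes along the chromosome) with sh1209 and sh1319 in each cell line. Points are differences of group means, lines are 95% intervals, and filled points passed an adjusted p of 0.05. MT1M, MT1G and MT2A lie below 0 with both hairpins in MIA PaCa-2, while the filled points of Capan-1, MT2A, MT1A and MT1F with sh1209, lie above 0.

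In Capan-1 no member probe passed the threshold as a fall. MT1M was detected in no array there and had no room to fall. With sh1209, 3 of the 9 probes rose, MT1A, MT1F and MT2A, against 16.8% of all probes called, and the median was 0.10 against -0.01 over all tested probes. With sh1319 none passed, against 13.7% called, and the median was 0.17 against 0.00. At an unadjusted p under 0.05 (limma) there were 4, and the share of all probes at that unadjusted p is not given here. MT1A came closest with sh1319, at 0.35 (limma, adjusted p = 0.051), followed by MT1X at 0.36 (limma, adjusted p = 0.07), and both passed in some of the alternatives. With median scaling the median of all probes moved up by 0.11 for sh1319 in Capan-1, and MT1A and MT1X did not pass there. The 3 rises came with the hairpin that lowered PTK2 less at probe 450253. It left 65.4% of the shCtrl signal in Capan-1, and sh1319 left 29.2%, a log2 difference of 1.16 (limma, adjusted p = 6.2e-05). At the dimmer PTK2 probe, 2680750, the difference between the hairpins was -0.00054 and did not pass. The part of the unequal knockdown in these member values was not tested.

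MT1A read 10.13 and 10.21 with shCtrl, 10.73 and 10.66 with sh1209 and 10.57 and 10.47 with sh1319. The shCtrl arrays were lowest and the sh1209 arrays highest, without overlap. The rise with sh1209 was 0.52 (SE 0.11, limma, adjusted p = 0.0061), which is 144% of the shCtrl signal, and the hairpins differed by 0.17, which did not pass (95% interval -0.06 to 0.41). This rise passed in every alternative limma fit run.

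MT1F read 8.30 and 8.40 with shCtrl, 9.24 and 9.06 with sh1209 and 8.58 and 8.36 with sh1319. The sh1209 arrays lay above the other 4, which overlapped. The change was 0.80 (SE 0.22, limma, adjusted p = 0.026) for sh1209 and 0.12 (limma, adjusted p = 0.8) for sh1319. The difference between the hairpins of 0.68 did not pass (limma, adjusted p = 0.069). Nor did that of any other of the 9 probes, against 11.3% of all probes called. At an unadjusted p under 0.05 (limma) there were 2 of the 9, and the share of all probes at that unadjusted p is not given here. The sh1209 call was lost without shCtrl replicate 1 (0.75), shCtrl replicate 2 (0.85), sh1209 replicate 1 (0.71) or sh1209 replicate 2 (0.89), and with no filter (adjusted p = 0.053).

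MT2A read 10.26 and 9.99 with shCtrl, 10.59 and 10.60 with sh1209 and 10.43 and 10.16 with sh1319. The sh1209 arrays were the highest, and shCtrl and sh1319 overlapped. For sh1209 the change was 0.47 (SE 0.13, limma, adjusted p = 0.032) and for sh1319 it was 0.17 (limma, adjusted p = 0.5). The first was lost without shCtrl replicate 2 (0.33), sh1209 replicate 1 (0.48) or sh1209 replicate 2 (0.47), with median scaling (0.58, limma, adjusted p = 0.058) and in a fit of Capan-1 alone (0.45, limma, adjusted p = 0.081).

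Of the others, MT1X read 9.35 and 9.22 with shCtrl, 9.69 and 9.49 with sh1209 and 9.67 and 9.61 with sh1319, so that both shCtrl arrays lay below all 4 arrays with FAK hairpins. MT1G read 5.70 and 5.75, 5.88 and 5.78, and 6.03 and 6.05 in the same order, with changes of 0.10 and 0.31 that did not pass. MT1H probe 130093 ranged from 5.52 to 5.77, with changes of 0.10 and 0.17. MT1E probe 2070288, detected in all 12 arrays, had negative values, at -0.06 with sh1209 and -0.33 with sh1319 (limma, adjusted p = 0.15). Both sh1319 arrays (9.87 and 9.75) lay below both shCtrl arrays (10.23 and 10.05). Without background correction this fall with sh1319 passed (-0.31, limma, adjusted p = 0.023).

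Markers of other cells moved in the same comparisons. Of the 6 tested probes of that list, 2 rose with sh1209 in Capan-1 (PRSS1 by 1.51 among them) and 1 fell with sh1319, whereas in MIA PaCa-2 1 rose with each hairpin, ALB by 2.02 with sh1319 and CD68 by 0.81 with sh1209. The summed normalized signal of the 6 probes was 546 to 590 with shCtrl, 733 to 861 with sh1209 and 819 to 923 with sh1319 in MIA PaCa-2. In Capan-1 it was 1021 to 1098, 1340 to 1403 and 1007 to 1121. Of all probes, 16.8% and 13.7% were called for sh1209 and sh1319 in Capan-1 and 18.0% and 24.3% in MIA PaCa-2. With only 6 probes, neither a count of 1 nor the 2 with sh1209 in Capan-1 can be set apart from that background. The summed signal lay above shCtrl without overlap for sh1209 in both cell lines and for sh1319 in MIA PaCa-2. CPA1 and INS stayed below detection. The part of these markers in the metallothionein values was not tested.

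The FAK hairpin effect was then compared between the cell lines by the interaction, which is the mean change of both hairpins in MIA PaCa-2 minus that in Capan-1. It passed for 4 of the 9 member probes, all negative, against 14.4% of all probes called, and the median over the 9 was -0.33 against 0.00. The values were -1.86 for MT1M (limma, adjusted p = 9.7e-06), -1.19 for MT1G (limma, adjusted p = 0.00026), -0.84 for MT2A (limma, adjusted p = 0.0055) and -0.52 for MT1A (limma, adjusted p = 0.021). For MT1M the Capan-1 side of the difference holds no detected array, so the value is the fall in MIA PaCa-2 set against background. For MT1G and MT2A, detected in all 12 arrays, the MIA PaCa-2 arrays with FAK hairpins lay below their controls, and the Capan-1 arrays with sh1209 above theirs. The knockdown was itself unequal, with an interaction of -1.17 at PTK2 probe 450253 (limma, adjusted p = 0.00021). At the dimmer PTK2 probe, 2680750, it was 0.47 and did not pass (limma, adjusted p = 0.15). The part of the unequal knockdown in the member interactions was not tested. The MT1A call was lost without MIA PaCa-2 shCtrl replicate 1 (-0.54), MIA PaCa-2 shCtrl replicate 2 (-0.50) or Capan-1 shCtrl replicate 1 (-0.48), and with median scaling (-0.65, limma, adjusted p = 0.12).

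**Figure D4:**
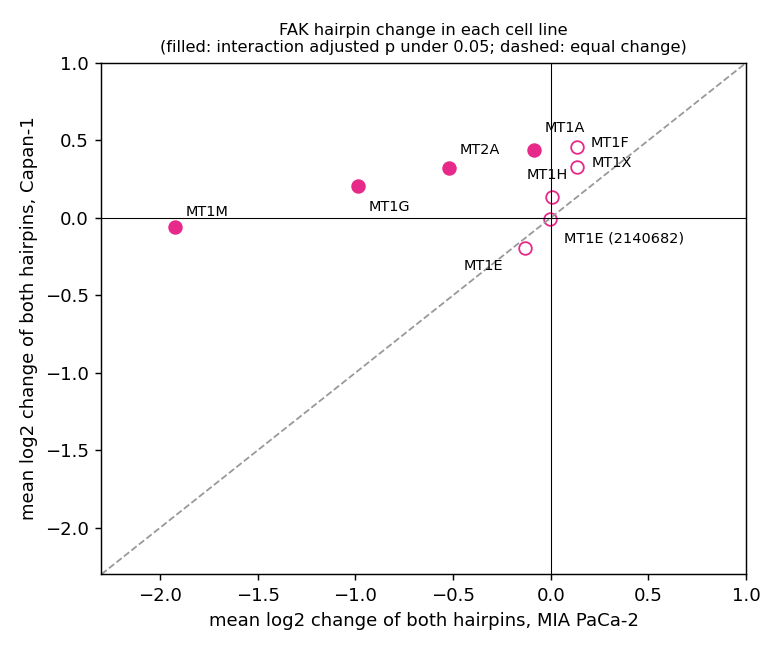
Mean log2 change of sh1209 and sh1319 against shCtrl in MIA PaCa-2 (x axis) and in Capan-1 (y axis) for the 9 tested metallothionein probes. Filled points passed the interaction test at an adjusted p of 0.05, and the dashed line marks equal change. The filled points, MT1M, MT1G, MT2A and MT1A, all lie above that line, with interactions of -1.86, -1.19, -0.84 and -0.52.

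Averaged over both cell lines, the combined comparison called 3 of the 9 probes, 1 higher and 2 lower, against 25.2% of all probes. MT1M fell by 0.99 on the log2 scale (SE 0.08, limma, adjusted p = 3.9e-06). As it was detected in no Capan-1 array, this value averages the fall in MIA PaCa-2 with background. MT1G fell by 0.39 (SE 0.07, limma, adjusted p = 0.0024), with Capan-1 values of 0.10 and 0.31 for sh1209 and sh1319. MT1X rose by 0.23 (SE 0.07, limma, adjusted p = 0.035), with positive values in all 4 pairs of hairpin and cell line (0.08, 0.19, 0.30 and 0.36). MT2A, with opposite signs in the 2 cell lines, had a combined value of -0.10 (limma, adjusted p = 0.42). The MT1X call was lost without any 1 of 9 arrays, namely replicates 1 and 2 of MIA PaCa-2 shCtrl, MIA PaCa-2 sh1209 and Capan-1 shCtrl, and replicate 1 of MIA PaCa-2 sh1319, Capan-1 sh1209 and Capan-1 sh1319, with values of 0.20 to 0.27. With median scaling MT1G was at -0.25 and did not pass (limma, adjusted p = 0.17), nor did MT1X at 0.31.

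MTF1, the zinc sensor that switches metallothionein genes on, read 5.76 and 5.50 with shCtrl in MIA PaCa-2, 6.20 and 5.87 with sh1209 and 6.52 and 6.08 with sh1319. Both FAK hairpin groups lay above the controls there. MTF1 rose with sh1319 by 0.67 (SE 0.17, limma, adjusted p = 0.013), and its values for the other pairs were 0.41 for sh1209 in MIA PaCa-2, 0.13 for sh1209 in Capan-1 and 0.44 for sh1319 in Capan-1, none of which passed. In the combined comparison it rose by 0.41 (limma, adjusted p = 0.012). SLC30A1, a zinc exporter that is itself a target of MTF1, passed against shCtrl at neither of its 2 probes. Its values at probe 5490546 for sh1209 and sh1319 were 0.29 and -0.15 in MIA PaCa-2, against values of -0.25 and -0.24 in Capan-1.

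The counts of the metal and stress lists that follow stand beside the shares of all probes called against shCtrl, in MIA PaCa-2 18.0% with sh1209 and 24.3% with sh1319, and in Capan-1 16.8% and 13.7%. Of 13 tested probes for MTF1 and the zinc exporters, 2 rose and 4 fell with sh1319 in MIA PaCa-2, with a median of -0.19. In each of the other pairs 1 rose and none fell. SLC30A5, which loads zinc into the secretory pathway, fell with sh1319 at 3 probes, by 1.04, 0.84 and 0.68 on the log2 scale. SLC30A6, its partner, rose by 0.97 with sh1209 in MIA PaCa-2. Of 16 tested probes for zinc importers of the SLC39 family, 3 rose and 1 fell with sh1209 and 4 rose and 2 fell with sh1319 in MIA PaCa-2 (medians 0.17 and 0.25). In Capan-1 1 rose and 1 fell with sh1209 and 2 fell with sh1319 (medians -0.09 and -0.15). The largest change was at SLC39A8, a plasma membrane importer, which rose with sh1319 in MIA PaCa-2 by 3.58 at one probe and 2.40 at another (limma, adjusted p = 6.1e-07 and 2e-06). SLC39A14, the importer nearest to it in sequence, fell by 1.66 with sh1319 there, and SLC39A11 rose by 1.24 with sh1209 in Capan-1.

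Among copper genes, against the same shares of all probes, none rose and 1 of 11 probes fell with sh1209 in MIA PaCa-2, 3 rose and 1 fell with sh1319, and 2 rose and none fell with each hairpin in Capan-1. The copper importer SLC31A1 fell by 0.81 with sh1319 in MIA PaCa-2 while SLC31A2 rose by 0.97 and the exporter ATP7B by 0.83, and SCO1, a copper chaperone of the mitochondrion, fell by 0.88 with sh1209. Among 9 probes for iron handling, 7 rose and none fell with sh1209 in Capan-1 (median 0.62, 16.8% of all probes called), while 2 rose and 1 fell with sh1319 (13.7% called). With sh1209 in MIA PaCa-2 1 fell (18.0% called), and with sh1319 2 rose and 2 fell (24.3% called). For FTH1 and FTL, the ferritin heavy and light chains, the changes with sh1209 in Capan-1 were 0.62 and 0.79. In MIA PaCa-2 FTH1 fell by 1.93 (limma, adjusted p = 4.3e-06) for sh1209 and by 0.93 (limma, adjusted p = 0.00066) for sh1319. IREB2, which represses ferritin translation, fell by 1.15 with sh1319 in MIA PaCa-2, and SLC40A1, the iron exporter, rose by 0.73 with sh1209 in Capan-1.

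The next lists are to be read against the same shares, with 18.0% (sh1209) and 24.3% (sh1319) of all probes called in MIA PaCa-2, against 16.8% and 13.7% in Capan-1. Of 18 probes for metal and oxidant stress genes, 4 rose and 3 fell with sh1209 and 4 rose and 7 fell with sh1319 in MIA PaCa-2, and none rose and 2 fell with sh1209 and 1 rose and 4 fell with sh1319 in Capan-1. With sh1319 in MIA PaCa-2 the cystine transporter SLC7A11 rose by 2.25, while NQO1 fell by 1.96, TXNRD1 by 1.43 and GCLM, a subunit of glutathione synthesis, by 1.31. Of 8 probes for glucocorticoid-induced genes, 4 rose and none fell with each hairpin in Capan-1 (medians 0.65 and 0.61), and in MIA PaCa-2 2 rose with each hairpin and 1 fell with sh1319 (medians 0.10 and 0.10). SGK1 rose with sh1209 in Capan-1 by 3.35 and 3.29 at 2 probes and DUSP1 by 2.39, and TSC22D3 rose by 0.98 with sh1209 in MIA PaCa-2. Of the 11 probes for the neighbours of the gene cluster, 2 rose and none fell with sh1209 in MIA PaCa-2 and 2 rose and 1 fell with sh1319, and in Capan-1 1 rose and 1 fell with sh1209 and 2 rose with sh1319. HERPUD1, a stress-induced gene of the endoplasmic reticulum, rose at both probes with sh1319 in MIA PaCa-2, by 1.63 and 1.25, while NUDT21 fell by 0.88. NUP93, a nuclear pore protein, rose by 0.67 with sh1209 in MIA PaCa-2.

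MTE read 10.64 and 10.75 with sh1209 and 10.84 and 10.82 with sh1319 in MIA PaCa-2, all below its shCtrl arrays, with changes of -0.37 (limma, adjusted p = 0.066) and -0.24 that did not pass. MTL5 fell by 1.23 with sh1319 in MIA PaCa-2 (limma, adjusted p = 4.3e-05), where it was detected in neither array, at least 1.98-fold lower on the background-corrected scale.

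The probes of other genes most like the family were sought by the Pearson correlation with the mean of the 9 member probes over 12 arrays, after each cell line's own mean was subtracted. The centred member mean was 0.28 and 0.22 in MIA PaCa-2 with shCtrl, -0.18 and -0.26 with sh1209 and -0.01 and -0.05 with sh1319. In Capan-1 it was -0.08 and -0.16 with shCtrl, 0.17 and 0.05 with sh1209 and 0.04 and -0.02 with sh1319. All metallothionein names were left out of this ranking of the 24207 tested probes. The highest were the transcript HS.543842 (r = 0.970), SLC35B2, a sulfate donor transporter (0.957), and BHLHB2, now BHLHE40, a repressor of the clock and hypoxia responses (0.956). TRPT1, a tRNA phosphotransferase (0.955), and CTGF, now CCN2, a matricellular protein (0.955), followed. For sh1209 and sh1319 in that order, BHLHB2 had log2 changes of -2.12 and -1.07 in MIA PaCa-2, and of 0.64 and 0.04 in Capan-1. Those of CTGF were -1.65 and -1.10 in MIA PaCa-2, against 0.95 and 0.39 in Capan-1. The 12 arrays share 1 chip and fall into 6 groups, and MT1M weighs most in the member mean of MIA PaCa-2, so that these values describe the order of the groups and nothing more.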

How the data were processed

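Total RNA (500 ng) was labelled and hybridised to Illumina HumanHT-12 v4 arrays. The authors deposited linear probe intensity values that were not normalized, each with a detection p-value. The submitters' processing notes name GenomeStudio 2011.1, and the annotation build is not given in the sources used here. Of 47320 rows, 92 were spike-in rows, and 28 columns held no values.

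Intensities were background-corrected with limma's nec (normexp from the detection p-values, offset 16, which understates changes of dim probes), put on the log2 scale and quantile-normalized. Testing covered the 24207 of 47228 probes detected at p under 0.05 on 2 or more of the 12 arrays. Means of the 6 groups were fitted with limma 3.58.1 (R 4.3.3), leaving 6 residual degrees of freedom. Benjamini-Hochberg adjustment ran over all tested probes within each of 9 comparisons. The combined comparison averages sh1209 and sh1319 against shCtrl over both cell lines. Where no array of a group detected a probe, a lower bound of the fold was formed with, for each such array, the higher of the probe's own signal and the dimmest detected signal. Known changes planted in simulated data were used to test the fit.

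Groups were read from the sample labels. The members, the gene lists and the tests were chosen with earlier results of these data known. Named in the text are all member probes, PTK2, other metallothionein names, up to 4 probes of each gene list with the largest change past the threshold in the combined comparison or in a pair of hairpin and cell line, MTF1, SLC30A1 and the 5 probes most correlated with the members. Markers of other cells, and FTH1 in comparisons other than its largest, were added after their values were seen. A gene of the list of neighbours is not reported here and was left out of that list's counts. Array gene names were updated through RefSeq of GRCh38.p14. The table names no build, so none of that annotation's coordinates was given to a probe. The alternatives were no background correction, an offset of 50, median scaling, no filter, a stricter filter (detection p under 0.01 in at least 6 arrays), the replicate number as a block, array weights, each array left out, a fit of 1 cell line and the methods' t-test.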

Additional observations from a re-analysis of the deposited data

Results flagged for a closer look

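The difference between cell lines in the FAK hairpin effect passed the interaction test for 4 member probes, each given as the mean log2 change of both hairpins in MIA PaCa-2 minus that in Capan-1. MT1M had -1.86 (limma, adjusted p = 9.7e-06), with no Capan-1 array detected, MT1G had -1.19 (limma, adjusted p = 0.00026), MT2A had -0.84 (limma, adjusted p = 0.0055) and MT1A had -0.52 (limma, adjusted p = 0.021). PTK2 probe 450253 itself had -1.17 (limma, adjusted p = 0.00021), and the part of this unequal knockdown was not tested. Groups of 2 arrays are too small for a test of single outlying arrays.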

How the results depend on the processing

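Of 25 called member values, none changed sign under any alternative run, and of 485 values recomputed by limma 31 no longer passed, mostly those of MT2A, MT1F and MT1X named in the report. Of the 1189 values compared for probes that were not called, 38 changed sign and none of these passed. The cell line difference kept 8 called probes throughout, except for 9 without MIA PaCa-2 shCtrl replicate 2, and the interaction called between 3 and 5.

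The count for sh1319 in Capan-1, 0 in the report, was 3 without background correction, 2 with an offset of 50 and 1 with no filter. It was 2 with the stricter filter, 1 with array weights and 3 by the methods' t-test unadjusted. Calls among all 24207 probes moved too, from 3322 to 4520 without background correction and 4404 with an offset of 50. They were 3653 with array weights and 4393 by that t-test. With no filter 3310 of 47228 were called, and with the stricter filter 3956 of 14950. The count between the hairpins in Capan-1, also 0, was 2 without background correction, 1 with an offset of 50, with the stricter filter, with array weights and in a fit of 1 cell line, and 2 by the methods' t-test unadjusted, and it ranged from 0 to 1 with each array left out. For the hairpin comparison in Capan-1 the calls among all probes under these settings are not given here. The combined count of 3 was 6 without background correction and 5 with an offset of 50. Calls among all probes in the combined comparison went from 6092 to 6977 and 6981 in the same settings. Leaving out 1 array gave 1 to 2 between the hairpins in MIA PaCa-2, and for sh1209 in Capan-1 it gave 1 to 3. The methods' t-test with Benjamini-Hochberg adjustment called 0 for sh1209 in MIA PaCa-2, 0 for sh1319 in MIA PaCa-2, 0 for sh1209 in Capan-1 and 0 between the hairpins in MIA PaCa-2, and unadjusted it called 5 for sh1209 in MIA PaCa-2. It called at most 4 of all 24207 probes in any comparison within a cell line. The cause of these moves was not tested. Median scaling moved the share of higher calls among all probes from 50.3% to 66.6% for sh1319 in MIA PaCa-2, from 48.4% to 81.7% for sh1209 and from 50.6% to 85.3% for sh1319 in Capan-1, from 49.6% to 78.0% in the combined comparison, from 50.4% to 31.7% for the interaction and from 50.6% to 34.7% between the hairpins in MIA PaCa-2.

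Over whole arrays, the normalized values showed little pairing by replicate number. Before normalization the median intensity was higher in replicate 2 of every group. A correlation over all probes after normalization cannot exclude a replicate effect at single probes. Over 15 pairs of groups the correlation of replicate differences ran from -0.06 to 0.16, with 1 over 0.1. With the replicate number as a block, the member counts were 3, 3, 3, 0, 3, 4, 1, 0 and 8, as without it, and 4247 in place of 4365 of all probes were called for sh1209 in MIA PaCa-2. Probes near background have little room to fall, so a fall there was not detectable. They are MT1E 2140682 in both cell lines, MT1H and MT1F in MIA PaCa-2 and MT1M in Capan-1.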
